A study of Mus musculus with 10 samples.

Results

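A set of 9 genes of the interleukin-1 (IL-1) family and the inflammasome was followed in mouse prostate cancer organoids: the cytokines IL18, IL1A, IL1B and IL33, the receptor antagonist IL1RN, the caspases CASP1 and CASP4, the pore-forming protein GSDMD and the adaptor PYCARD. These are 9 of the 24016 genes listed in both deposited tables, taken by their symbols. The set was chosen by the RPKM values of IL18, which were higher with DZNep and lower with Tamoxifen, so the IL18 values are given as a description with no test. The other 8 were included for their family or pathway and, where they passed a filter on low values, were tested in fits over all genes.

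Organoids are 3-dimensional cultures, grown here from the dorsal-lateral prostate lobe of C57BL/6 mice aged 8 weeks. The mice carried cMYC overexpression, floxed EZH2 alleles and an inducible PSA-CreERT2, that is, a recombinase activated by Tamoxifen and driven by a promoter that is active in androgen-responsive prostate cells. The medium of all groups held 10 nM R1881, a synthetic androgen. The chemical experiment set 3 libraries of organoids given DZNep at 1 µM beside 3 given DMSO; the genetic experiment set 2 given Tamoxifen at 1 µM beside 2 given ethanol (EtOH), and treatment lasted 3 days in each. EZH2 is the methyltransferase of Polycomb repressive complex 2, and the study asked what its inhibition by drug or by gene deletion does to expression. No arm separates Tamoxifen as a compound from Cre activity, so these cannot be told apart. The labels do not tie replicates to separate cultures or mice, so each p-value reflects only library-to-library spread, possibly technical.

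IL-1 family cytokines are alarm signals of epithelia and immune cells. IL-1β and IL-18 are made as inactive precursors that caspase-1 cuts inside inflammasomes, assemblies of a sensor, the adaptor ASC (encoded by PYCARD) and the caspase. Caspase-4 of the mouse, also known as caspase-11, senses bacterial lipopolysaccharide inside the cell, and both caspases cut gasdermin D, whose freed part makes pores in the plasma membrane. IL-1α and IL-33 are active without inflammasome cleavage, reside partly in the nucleus of barrier epithelia and are released upon damage.

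In the 10 libraries 15021 to 15404 genes were above 0 RPKM (reads scaled to gene length and library size) and RPKM totals ran from 469455 to 512726. Read depth is not known from these values. EZH2 measured 30.4, 29.8 and 27.1 RPKM in DMSO and 22.5, 24.2 and 24.7 in DZNep, and 27.9 and 34.0 in EtOH against 32.0 and 33.2 in the libraries labelled Tamoxifen, where a value for the whole gene does not check the deletion of floxed exons. Of the epithelial markers, 9 of 10 luminal genes, among them KRT8 and KRT18, and 6 of 6 basal genes averaged 1 RPKM or more in every group, while the secretory gene PBSN was listed at 0 in every library. Of the 18 leukocyte markers, 3 averaged 1 RPKM or more in each group: CD68, CD14 and CD52, with AIF1 in place of CD52 in EtOH. CD14 averaged 31.6 RPKM in DMSO, 43.0 in DZNep, 36.3 in EtOH and 52.0 in Tamoxifen. Other leukocyte genes were at or near 0. ITGAX, EMR1 (the macrophage gene also named ADGRE1) and TYROBP were listed at 0 in all 10 libraries. The pan-leukocyte gene PTPRC did not exceed 0.00494 RPKM. The summed level of the 18 leukocyte markers nevertheless ran from 46.2 to 51.5 RPKM in DMSO, 62.6 to 64.1 in DZNep, 49.9 to 53.4 in EtOH and 66.0 to 70.1 in Tamoxifen, carried by CD14 and CD68, and its part in the results below was not tested.

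Promoter sequences of the 4 members that changed most are shown first, since they let these genes be compared at their start sites. RefSeq promoter windows of GRCm38.p6, another build than the mm9 of the expression tables, matched 8 of the 9 members with 12 windows. The 250 bases before each start are printed 5′ to 3′ on the gene's strand, with capitals for matches to 5 motif cores searched on both strands. They were TATAAA for the TATA box, TGANTCA for AP-1 and TTCNNNGAA for the gamma-activated site. The interferon-stimulated response element was searched as 10 bases that begin and end with GAAA. The NF-kB site was searched as 10 bases from GGGA to TTCC. The windows are chr9:50554450-50554699 (+) for IL18, chr19:29945540-29945789 (+) for the downstream of 2 IL33 starts, chr2:129309973-129310222 (-) for IL1A and chr9:5308599-5308848 (+) for the first of 2 CASP4 starts.
IL18: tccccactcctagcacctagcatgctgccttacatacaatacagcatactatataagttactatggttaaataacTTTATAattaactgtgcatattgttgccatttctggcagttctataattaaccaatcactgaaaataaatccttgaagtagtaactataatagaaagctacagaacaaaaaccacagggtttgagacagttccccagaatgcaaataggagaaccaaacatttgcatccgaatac
IL33: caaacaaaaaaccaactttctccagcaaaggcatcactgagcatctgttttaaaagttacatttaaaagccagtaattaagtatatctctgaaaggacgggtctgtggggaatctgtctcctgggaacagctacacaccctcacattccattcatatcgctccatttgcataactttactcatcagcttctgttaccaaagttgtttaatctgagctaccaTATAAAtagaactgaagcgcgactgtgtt
IL1A: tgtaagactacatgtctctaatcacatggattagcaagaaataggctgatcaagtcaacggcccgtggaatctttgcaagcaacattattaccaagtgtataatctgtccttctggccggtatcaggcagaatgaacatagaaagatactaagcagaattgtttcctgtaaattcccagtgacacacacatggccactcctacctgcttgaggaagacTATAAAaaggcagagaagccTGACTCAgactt
CASP4: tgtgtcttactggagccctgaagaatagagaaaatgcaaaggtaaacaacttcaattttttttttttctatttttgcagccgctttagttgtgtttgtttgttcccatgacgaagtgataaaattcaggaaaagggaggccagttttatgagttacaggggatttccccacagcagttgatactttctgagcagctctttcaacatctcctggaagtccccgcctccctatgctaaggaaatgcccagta

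IL1A held TATAAA from 32 to 27 bases before its start and an AP-1 core, TGACTCA, from 12 to 6 bases before it. IL33 held TATAAA from 29 to 24 bases before the start shown. The TATA match of IL18 lay from 175 to 170 bases before its start on the opposite strand, and CASP4 held none of the 5 cores as searched. None of these matches overlapped another. Over all 32851 windows of the same length, 12.4% held TATAAA, 6.75% the AP-1 core, 2.98% the interferon element, 7.02% the gamma-activated core and 1.21% the NF-kB core. None of the 12 member windows matched the interferon, gamma-activated or NF-kB core as searched. Wider forms of these sites were not searched. The CASP4 window holds the run ggggatttcccc, which resembles the NF-kB core but does not match the form used. The 12 windows, some of which overlap, held 1 to 4 CpG dinucleotides each, 1 in IL18, where the median over all windows was 6. Of all windows, 7.9% held fewer than that of IL18, but 37.8% held fewer than the windows with 4, such as those of IL33. These are descriptions of the letters in the windows and not of factor binding.

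Among the cytokines, IL33 was by far the most abundant. It measured 184, 183 and 170.4 RPKM in the DMSO libraries and 183 and 187 in EtOH, which placed it between rank 365 and rank 376 of all genes. IL1RN, which blocks the IL-1 receptor, came next at 23.4 ± 2.09 RPKM in DMSO (SD, n = 3) and 22.5 ± 1.43 in EtOH (n = 2). PYCARD (10.4 ± 0.373 in DMSO), CASP4 (10.2 ± 0.352), GSDMD (8.52 ± 1.01), IL1A (8.46 ± 1.00) and IL18 (6.27 ± 0.856) followed. In DMSO the libraries of PYCARD and CASP4 overlapped, as did those of GSDMD and IL1A, whereas IL18 lay below IL1A in every library. In EtOH PYCARD, CASP4 and IL1A overlapped, IL1A overlapped GSDMD, and IL18 was again the lowest of these 7.

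CASP1 and IL1B, the caspase and the cytokine most tied to inflammasomes, were at or near 0. CASP1 was listed at 0 in 9 of 10 libraries and at 0.0377 RPKM in DZNep 1. IL1B was listed at 0 in DMSO 1, DMSO 3 and DZNep 2 and reached at most 0.0701 RPKM, in DMSO 2. The 18 reference genes examined, used by every cell, such as TBP at 13.0 to 16.5 RPKM, were above 0 in all libraries. Both genes lay under the filter of 1 RPKM on average, so 7 of the 9 members passed it and 6 of the 8 other than IL18 were tested.

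**Figure D1:**
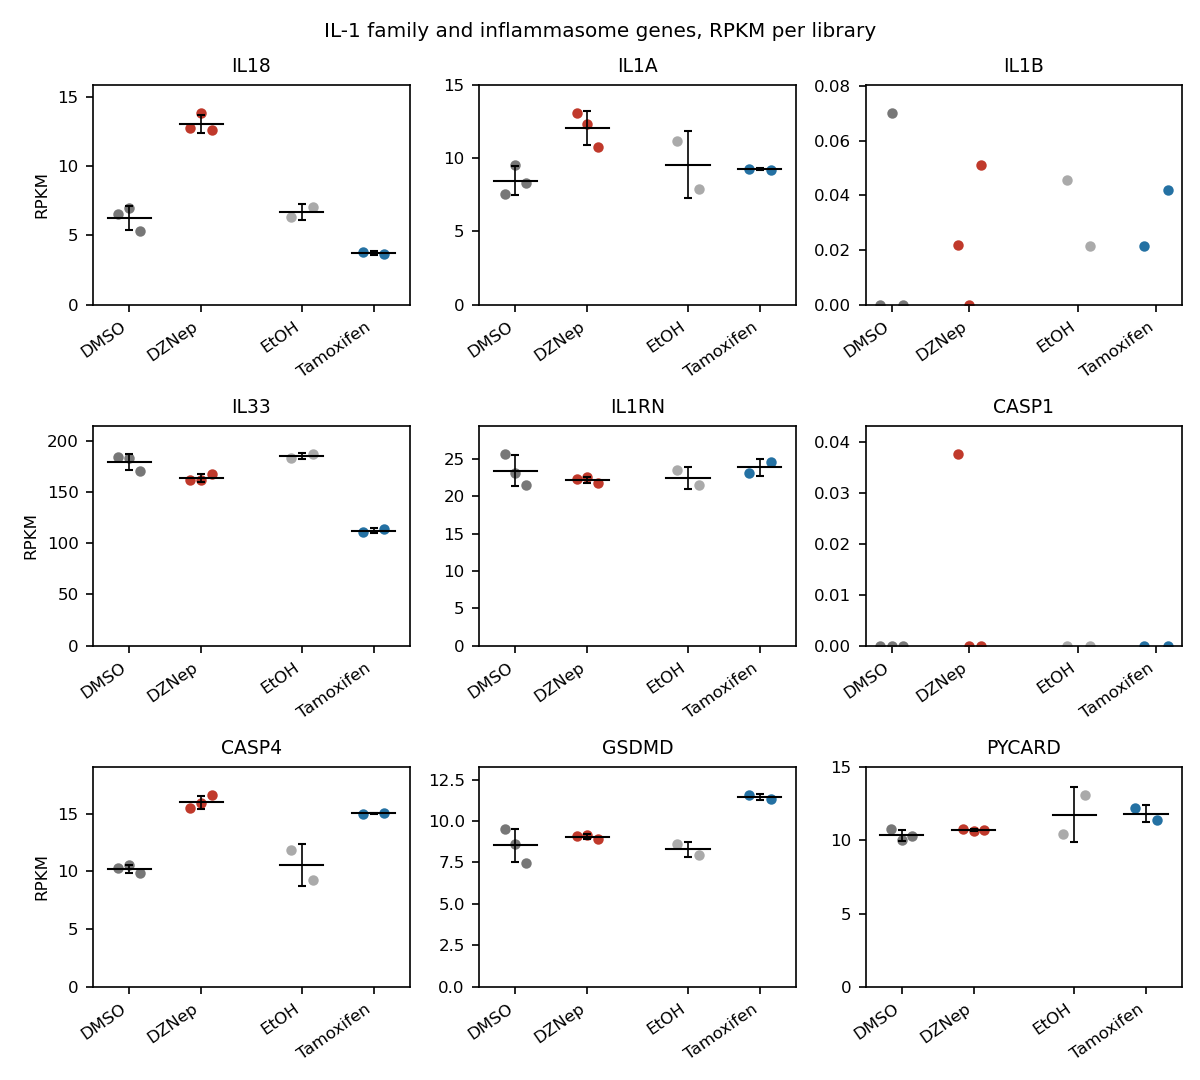
RPKM of the 9 members in each of the 10 libraries, with a panel and a linear axis of its own for each gene. Points are libraries, horizontal bars group means and whiskers SD (n = 3 for DMSO and DZNep, n = 2 for EtOH and Tamoxifen; none are drawn for IL1B and CASP1, which lay under the filter). IL18 stood between 12.6 and 13.8 RPKM in DZNep and between 3.62 and 3.83 in Tamoxifen, on opposite sides of its controls.

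IL18, which drives interferon-γ production by lymphocytes, stood above its control in 1 experiment and below it in the other. It measured 6.54, 6.95 and 5.31 RPKM in DMSO and 12.7, 13.8 and 12.6 in DZNep, a 2.08-fold difference and 0.96 on the log2(RPKM + 1) scale (SE 0.0879). It measured 6.30 and 7.07 RPKM in EtOH and 3.83 and 3.62 in the libraries labelled Tamoxifen, 0.557 of the control level and -0.70 on the log2 scale (SE 0.0748). Neither pair of groups overlapped, which held for 45.5% of all genes tested with DZNep and 59.9% with Tamoxifen. These values chose the gene set and support nothing further. Differences on this scale understate the changes of weakly expressed genes.

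IL33, ligand of the receptor ST2 and a nuclear alarmin of basal and other barrier cells, fell in the libraries labelled Tamoxifen. Its 183 and 187 RPKM in EtOH compared with 111 and 114 in Tamoxifen, which was -0.72 in log2 (SE 0.0559; limma adjusted p = 0.0249), and its rank went from 365 to 374 in EtOH to 622 to 644. With DZNep it measured 161, 162 and 168 RPKM against 184, 183 and 170.4 in DMSO. The DZNep libraries lay just below those of DMSO, by -0.13 on the log2 scale (SE 0.0517; limma adjusted p = 0.0925), a difference that passed after quantile normalization (-0.18; adjusted p = 0.0116) and after trimmed mean scaling (-0.15; 0.0447). The difference of the effects was 0.58 (SE 0.0746; limma adjusted p = 9.36e-04). The call in the genetic experiment was lost without Tamoxifen 1 (adjusted p = 0.0974) or Tamoxifen 2 (0.116) and with no expression filter (0.117).

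IL1A, which signals through the same receptor as IL-1β, rose with DZNep. It measured 7.54, 9.53 and 8.32 RPKM in DMSO and 13.1, 12.3 and 10.8 in DZNep, which was 0.47 in log2 (SE 0.0924; limma adjusted p = 0.00959), with no overlap between the groups. In the genetic experiment EtOH 1 stood at 11.2 and EtOH 2 at 7.91 RPKM, and both Tamoxifen libraries lay between them at 9.28 and 9.20 (-0.02, SE 0.147; adjusted p = 0.930; 0.20 without EtOH 1). The difference of the effects was 0.49 and did not pass (adjusted p = 0.0838), but did without EtOH 2 (0.72; 0.0161).

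No difference in the antagonist passed the test. IL1RN measured 22.4, 22.6 and 21.8 RPKM in DZNep against 25.7, 23.1 and 21.5 in DMSO (log2 difference -0.07, SE 0.0655; limma adjusted p = 0.451), and 23.1 and 24.7 in Tamoxifen against 23.5 and 21.5 in EtOH (0.08, SE 0.0687; adjusted p = 0.458). The ratio of IL1RN to the sum of IL1A and IL1B was 3.41, 2.41 and 2.59 in the DMSO libraries and 1.71, 1.83 and 2.01 in the DZNep libraries. It was 2.10 and 2.71 in EtOH and 2.49 and 2.67 in Tamoxifen. The antagonist was more abundant than the agonists in every library. IL33 made up 91.3% to 92.9% of the summed RPKM of the 4 cytokines in the control libraries, 86.1% to 87.8% in DZNep and 89.4% to 89.9% in Tamoxifen.

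CASP4 rose with DZNep. It measured 10.3, 10.5 and 9.84 RPKM in DMSO and 15.4, 15.9 and 16.6 in DZNep (difference 0.60 in log2, SE 0.0493; limma adjusted p = 2.23e-04). Both Tamoxifen libraries, at 14.99 and 15.06 RPKM, also lay above EtOH 1 at 11.8 and EtOH 2 at 9.25 (0.48, SE 0.111; adjusted p = 0.0890). That difference missed the threshold, and passed without EtOH 1 (0.64; 0.0240), without EtOH 2 (0.32; 0.0460), with robust variances (0.48; 0.0448) and when 1 fit took in both experiments (0.48; 0.00983). The difference of the effects was 0.11 (SE 0.116; adjusted p = 0.519), and -0.05 without EtOH 1.

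GSDMD, the substrate of both caspases, passed the test in the genetic experiment. It measured 9.48, 8.63 and 7.46 RPKM in DMSO and 9.11, 9.15 and 8.91 in DZNep, which lay within the range of DMSO (0.08, SE 0.0768; limma adjusted p = 0.438). In the libraries labelled Tamoxifen it rose to 11.6 and 11.3 RPKM from 8.61 and 7.95 in EtOH (0.42, SE 0.0604; adjusted p = 0.0424). The call was lost without Tamoxifen 1 (0.226) or Tamoxifen 2 (0.289), with no trend (0.0548), after quantile normalization (0.0528) and with no filter (0.125). The difference of the effects was -0.34 (SE 0.112; adjusted p = 0.0576), and it passed without DMSO 3 (-0.42; 0.0124) and with robust variances (-0.34; 0.0457).

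PYCARD, the adaptor that joins sensors to caspase-1, overlapped in both experiments. It measured 10.8, 10.0 and 10.3 RPKM in DMSO and 10.8, 10.7 and 10.7 in DZNep (0.05, SE 0.0457; limma adjusted p = 0.468), and 10.4 and 13.1 in EtOH against 12.3 and 11.4 in Tamoxifen (0.02, SE 0.110; adjusted p = 0.938; -0.14 without EtOH 1). Neither difference passed.

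Of the 6 tested members other than IL18, 2 rose and 0 fell with DZNep, where 27.7% of the 11143 genes tested were called, 16.6% as higher and 11.1% as lower. With Tamoxifen 1 rose and 1 fell, where 2.07% of 11123 genes were called, 0.692% as higher and 1.38% as lower. The median log2 change of the 6 was 0.07 with DZNep and 0.05 with Tamoxifen, beside medians of 0.02 and 0.04 over all genes tested. In the difference of the effects only IL33 passed among the 6, where 19.9% of 10994 genes were called, 10.7% as higher and 9.2% as lower. The members were chosen with results of these data known, so these counts describe them and no more.

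**Figure D2:**
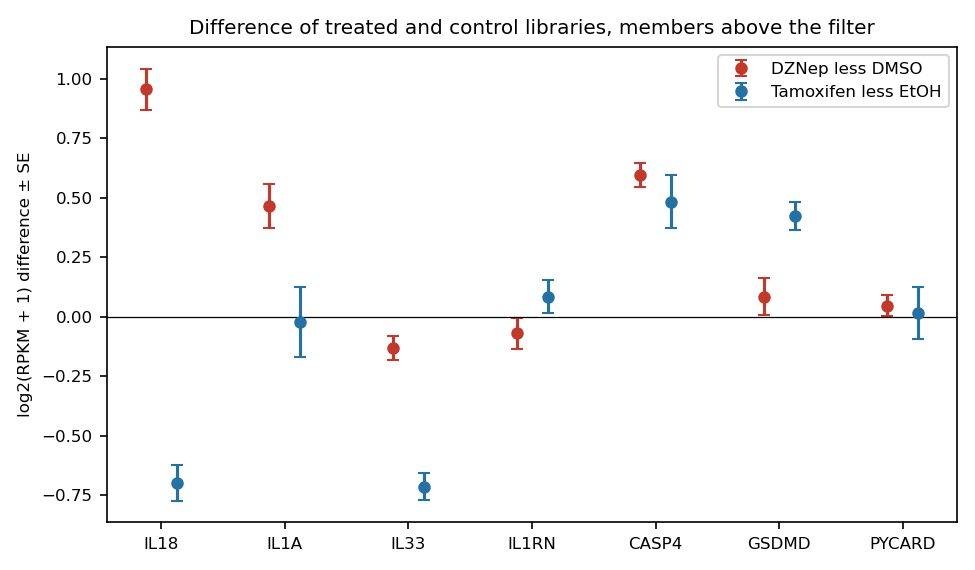
Difference of treated and control libraries in log2(RPKM + 1) for the 7 members above the filter, with DZNep less DMSO and Tamoxifen less EtOH side by side. Points are differences of group means and whiskers SE from limma. CASP4 lay above 0 in both experiments (0.60 and 0.48), IL18 on opposite sides of it (0.96 and -0.70) and IL33 below 0 in both (-0.13 and -0.72).

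Correlations between members had both signs. Over the 10 libraries, each gene taken less its mean in its experiment, Pearson's r between members ran from -0.831 (IL33 with GSDMD) to 0.726 (IL1A with CASP4), and IL18 had r = 0.680 with IL1A, 0.399 with CASP4, 0.320 with IL33, 0.234 with PYCARD, -0.198 with GSDMD and -0.418 with IL1RN. These correlations are descriptions, since the libraries share their treatment groups and the same values show in the comparisons above.

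The genes most like IL18 in this measure, among 10994, were KRT5 (r = 0.987), PPBP (0.981), GSTO1 (0.976), ANK (0.974) and KRT14 (0.974). KRT5 and KRT14 encode the keratin pair of basal epithelial cells, PPBP a platelet-type CXC chemokine, GSTO1 an omega-class glutathione transferase and ANK a transporter of pyrophosphate. KRT5 measured 2079, 2074 and 2030.3 RPKM in DMSO and 2749, 2748 and 2758 in DZNep, and 2046 and 2193 in EtOH against 1740.5 and 1688 in Tamoxifen. PPBP measured 36.6, 40.6 and 32.1 RPKM in DMSO, 134, 132 and 116 in DZNep, 43.1 and 36.7 in EtOH, and 13.4 and 12.4 in Tamoxifen. They were picked for this likeness, so their changes are given with no test.

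**Figure D3:**
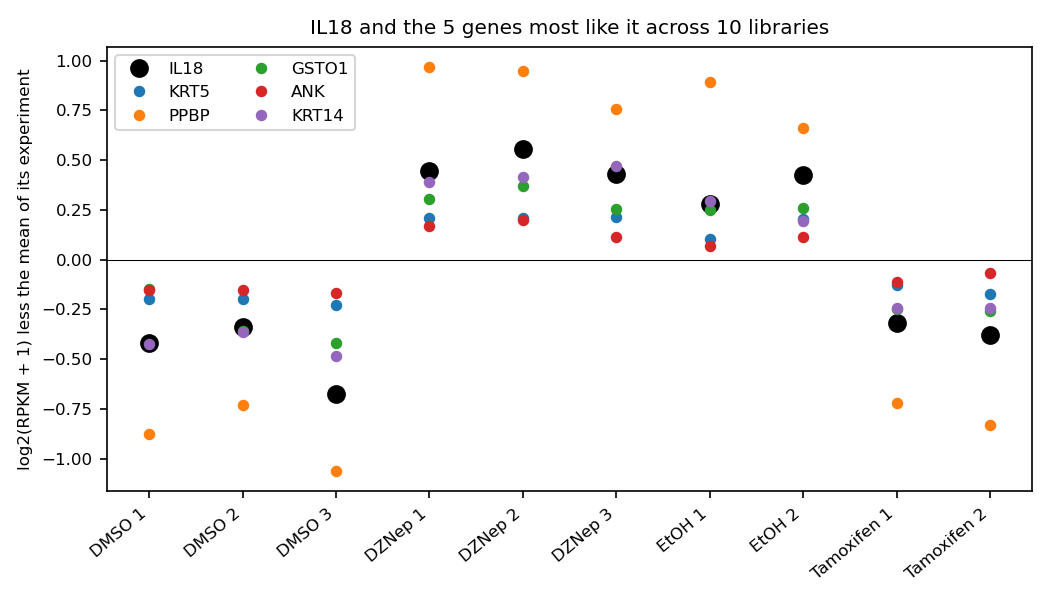
Values of IL18 and the 5 genes most like it in the 10 libraries, as log2(RPKM + 1) less the mean of the gene in its experiment. Each point is a library. For each gene all DZNep libraries lie above all DMSO libraries and all Tamoxifen libraries below all EtOH libraries, with r to IL18 from 0.974 to 0.987.

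Basal markers summed moved with IL18. The summed level of 6 basal markers was 5051 to 5328 RPKM in DMSO, 6821 to 7075 in DZNep, 5223 to 5607 in EtOH and 4139 to 4258 in Tamoxifen, while that of 10 luminal markers was 5288 to 5565, 5776 to 6014, 5256 to 5642 and 4413 to 4669. TRP63, the basal lineage factor, had a log2 difference of -0.04 with DZNep (limma adjusted p = 0.655) and -0.20 with Tamoxifen (0.128), neither of which passed. The 10 fibroblast and smooth muscle markers summed to 3.05 to 4.32 RPKM in DMSO, 8.32 to 9.50 in DZNep, 3.44 to 3.86 in EtOH and 2.79 to 4.25 in Tamoxifen, carried by DCN and ACTA2, with COL3A1 and DES at 0 in all libraries, and the 6 endothelial markers to at most 3.11 in any library. In bulk RNA, fewer cells of a type and less RNA per cell cannot be told apart, and the part of these marker lists in the IL18 values was not tested.

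Other members had other companions. CASP4 was most like BID, a pro-apoptotic BCL2 relative (r = 0.983), and CLU, the secreted chaperone clusterin (0.980), which measured 382 ± 3.13 RPKM in DMSO, 726 ± 31.4 in DZNep, 399.7 ± 59.8 in EtOH and 769 ± 0.539 in Tamoxifen. IL33 was most like ACER3, an alkaline ceramidase (0.990), and ZFAND6 (0.981). For IL1A the closest were KXD1 (0.967) and PRKD2 (0.955), for GSDMD RRNAD1 (0.962) and GADD45A (0.961), for IL1RN CCDC101 (0.944) and RPS2 (0.888), and for PYCARD WDR37 (0.906) and SPRR2B (0.902). The nearest genes beside IL18 on chromosome 9 that passed the filter, PTS and SDHD, had smaller differences. PTS had log2 differences of -0.13 with DZNep and 0.26 with Tamoxifen, and SDHD, of the respiratory chain, 0.22 and 0.12, none of which passed limma (adjusted p from 0.0837 to 0.350) except that of SDHD with DZNep when DMSO 1 was left out (0.30; 0.0142). The difference of the effects passed for PTS (-0.39; adjusted p = 0.0425; 0.0514 to 0.155 without any 1 library other than DMSO 3 or EtOH 2) and had the opposite sign to that of IL18 (1.66).

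Around the members, 94 further genes of the pathway were examined by role, all of them found in both tables. With DZNep 63 were tested, of which 19 rose and 6 fell, with a median log2 change of 0.05. With Tamoxifen 61 were tested, of which 4 rose and 1 fell, with a median of 0.01. Set against 27.7% and 2.07% over all genes, 25 of 63 (39.7%) and 5 of 61 (8.2%) were called. Of the 19 that rose, IL18BP, GSDMC and SAA3 passed the filter only through the DZNep libraries, and without them 16 of 60 rose and 6 fell. With DMSO 2 left out, the pathway genes called with DZNep in either direction went from 25 to 16 of 63. The calls with Tamoxifen were lost when either Tamoxifen library was left out.

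Other ligands of the family were hardly present. None of the 5 passed the filter, and the highest, IL1F6 (IL-36α), measured 0.120, 0.155 and 0 RPKM in DMSO and 0.291, 0.370 and 0.464 in DZNep, and 0.227 and 0.177 in EtOH against 0.142 and 0.139 in Tamoxifen.

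Receptors of the cytokines were unevenly expressed. IL1R1, the signalling receptor of IL-1α and IL-1β, was the highest at 11.3 ± 0.105 RPKM in DMSO and 10.9 ± 0.146 in EtOH, and differed by -0.11 with DZNep (limma adjusted p = 0.0938; 0.0485 after quantile normalization). IL1RL1, which encodes the IL-33 receptor ST2, did not exceed 0.0409 RPKM in any library, against at least 111 RPKM of its ligand. IL18R1 measured 2.28 to 2.91 RPKM in the control libraries and IL1RAP, the shared accessory chain of the IL-1 and IL-33 receptors, 0.476 to 0.693. These last 3 genes were named after their values were seen.

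In the chemical experiment IL18BP, a secreted decoy that neutralizes IL-18, averaged over 1 RPKM only in DZNep, so its test comes from the fit with no filter. It went from 0.925, 0.986 and 0.781 RPKM to 1.93, 1.82 and 1.89 (0.60 in log2; limma adjusted p = 0.00235), or 1.00 in log2 with a pseudocount of 0.1. The ratio of IL18 to IL18BP was 7.08, 7.05 and 6.80 in DMSO and 6.58, 7.58 and 6.67 in DZNep, which overlapped. In the genetic experiment IL18BP lay under the filter at 1.03 and 0.760 RPKM in EtOH and 1.02 and 1.16 in Tamoxifen. The ratio was 6.12 and 9.31 in EtOH against 3.73 and 3.13 in Tamoxifen. These ratios hold the IL18 values that chose the gene set, so they are descriptions only. SIGIRR, an inhibitory receptor of the family, fell with DZNep from 9.69, 9.18 and 9.34 to 7.35, 7.05 and 7.72 RPKM (-0.31, SE 0.0505; adjusted p = 0.00431). It measured 12.0 and 11.3 RPKM in Tamoxifen against 9.12 and 9.92 in EtOH (0.27; adjusted p = 0.0998, and 0.0268 in 1 fit of both experiments), and the difference of the effects was -0.58 (adjusted p = 0.00150). IL1RL2, the IL-36 receptor, rose with DZNep from 7.45 ± 0.631 to 9.21 ± 0.397 RPKM (0.27; adjusted p = 0.0194), a call lost without DZNep 1 (0.0540) or DZNep 3 (0.0526).

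In receptor signalling, 3 of 11 tested genes (27.3%) were called with DZNep, near the 27.7% of all genes: MYD88, the adaptor of IL-1 and Toll-like receptors (0.19; limma adjusted p = 0.0190), TAB1, an activator of the kinase TAK1 (0.17; 0.0229), and IRAK1, a receptor-associated kinase (-0.17; 0.0341). Leaving out DMSO 2, DMSO 3 or DZNep 2 took each of the 3 over the threshold (adjusted p from 0.0519 to 0.144), as did leaving out DZNep 1 for TAB1 (0.0516) and DZNep 3 for IRAK1 (0.0761). With Tamoxifen none was called, 3 had an unadjusted p under 0.05 (27.3%, against 25.5% of all genes), and the smallest p belonged to IRAK2 (0.24; adjusted p = 0.103). TAB2 was the highest at 33.6 ± 1.29 RPKM in DMSO and 32.8 ± 3.29 in EtOH.

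Sensors were represented by a few genes only. Of 7 tested, 2 (28.6%) were called with DZNep, near the 27.7% of all genes. NLRP3, the best studied sensor, was listed at 0 in 8 of 10 libraries and reached at most 0.0129 RPKM, and NLRC4, the partner of NAIP proteins, did not exceed 0.138 RPKM. AIM2, which binds cytosolic DNA, measured 32.3 to 34.3 RPKM in DMSO and 32.8 to 33.9 in DZNep (0.00; limma adjusted p = 0.983). These 3 were named after their values were seen. NAIP5, a receptor of bacterial flagellin, was the highest in DMSO at 40.1, 38.8 and 41.8 RPKM and rose with DZNep to 50.5, 47.9 and 49.3 (0.28, SE 0.0485; adjusted p = 0.00536), while NAIP6 fell from 9.95 ± 0.709 to 8.37 ± 0.584 RPKM (-0.22; 0.0427). The NAIP genes are close copies whose reads may be split between them, and the NAIP6 call was lost without DMSO 2, DMSO 3, DZNep 2 or DZNep 3 (0.0959 to 0.143) and with no filter (0.0820). NLRP10 had the smallest p with Tamoxifen (0.25; adjusted p = 0.227), at 51.1 and 43.3 RPKM against 42.5 and 36.3 in EtOH.

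Among cofactors and brakes, 3 of 11 tested genes (27.3%) were called with DZNep, near the 27.7% of all genes. SERPINB9, an inhibitor of granzyme B and inflammatory caspases, rose with DZNep. It measured 6.62, 6.38 and 7.43 RPKM in DMSO and 13.3, 13.6 and 13.5 in DZNep (0.89, SE 0.0587; limma adjusted p = 6.36e-05), and 7.46 and 7.22 in EtOH against 7.44 and 5.95 in Tamoxifen (-0.12; 0.468), with a difference of the effects of 1.01 (adjusted p = 5.01e-04). PANX1, a channel through which ATP leaves the cell, fell with DZNep by 0.28 (adjusted p = 0.0190; lost without DMSO 2, DZNep 1 or DZNep 2, 0.0513 to 0.0583), and BRCC3, a deubiquitinase acting on NLRP3, fell by 0.24 (0.0133). TXNIP, the highest of the role at 219 ± 14.0 RPKM in DMSO and 265 ± 14.5 in EtOH, differed by 0.04 with DZNep (0.712). PKN2 had the smallest p with Tamoxifen (-0.17; adjusted p = 0.148), where none of 11 genes was called and 4 (36.4%) had an unadjusted p under 0.05, against 25.5% of all genes.

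The gasdermin C genes, which encode pore formers expressed in epithelia of skin and gut, rose with DZNep. GSDMC2 measured 17.6, 21.3 and 22.8 RPKM in DMSO and 64.4, 73.9 and 60.4 in DZNep (log2 change 1.64, SE 0.105; limma adjusted p = 5.26e-05). GSDMC3 went from 5.43 ± 0.564 to 16.9 ± 1.65 RPKM (1.47; 3.44e-05), and GSDMC4 from 2.81 ± 0.271 to 7.56 ± 0.245 (1.17; 2.82e-05). GSDMC went from 0.690 ± 0.0981 to 1.82 ± 0.261, over 1 RPKM only in DZNep, and its test comes from the fit with no filter (0.74; adjusted p = 0.00436; 1.28 in log2 with a pseudocount of 0.1). In the genetic experiment the groups overlapped for all 4. GSDMC2 stood at 26.3 and 15.1 RPKM in EtOH and 20.9 and 16.0 in Tamoxifen (-0.12; adjusted p = 0.792), and the difference of the effects was 1.77 (0.00279) for GSDMC2, 1.54 (0.00133) for GSDMC3 and 1.23 (4.59e-04) for GSDMC4. The gasdermin C genes are near-identical neighbours, so reads may be split between them and the 4 values are not independent.

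In the same role, CASP8, which can also process IL-1β, was present at 25.7 to 28.0 RPKM in DMSO and 25.5 to 28.3 in DZNep, and was named after its values were seen. NINJ1, which ruptures the membrane of dying cells, had the smallest p with Tamoxifen (0.22; adjusted p = 0.173), where 0 of 8 genes were called and 1 (12.5%) had an unadjusted p under 0.05, against 25.5% of all genes.

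**Figure D4:**
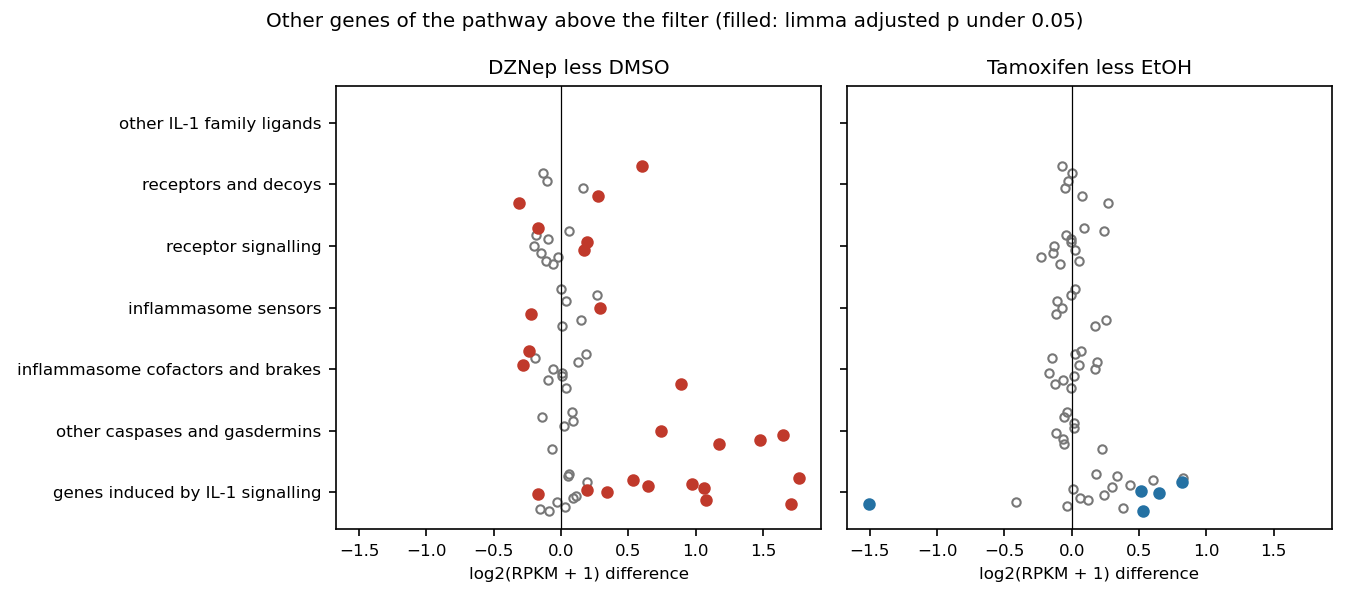
Difference of treated and control libraries in log2(RPKM + 1) for the pathway genes above the filter, by role, with DZNep less DMSO on the left and Tamoxifen less EtOH on the right. Each circle is a gene, filled where the limma adjusted p was under 0.05: 25 of 63 genes on the left and 5 of 61 on the right. None of the 5 other ligands passed the filter.

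Of 19 tested genes that IL-1 signalling is known to induce, 9 rose and 1 fell with DZNep (median 0.19), which is 52.6% called against 27.7% of all genes. The 9 and this share include SAA3, which passed the filter only through the DZNep libraries. Of 18 tested with Tamoxifen, 4 rose and 1 fell (median 0.32), which is 27.8% against 2.07%. These genes also respond to other inflammatory signals. CXCL5, a neutrophil chemokine, measured 115, 115 and 99.9 RPKM in DMSO and 237, 226 and 229 in DZNep (1.06, SE 0.0663; limma adjusted p = 4.87e-05), but 123 and 123 in EtOH and 119 and 129 in Tamoxifen (0.01; 0.952), and the effects differed by 1.05 (1.77e-04). CXCL1, of the same class, rose with DZNep from 32.4 ± 2.77 to 64.6 ± 4.41 RPKM (0.97; 1.66e-04) and measured 38.1 ± 3.73 in EtOH and 51.8 ± 6.45 in Tamoxifen (0.43; 0.106, and 0.0333 in 1 fit of both experiments). CCL20, a chemokine for dendritic and T cells, rose with DZNep from 9.67, 5.95 and 4.75 to 21.4, 25.7 and 27.2 RPKM (1.77; 0.00101), and measured 6.61 and 9.78 in EtOH and 12.3 and 18.4 in Tamoxifen (0.83; 0.121). SAA3, an acute phase protein, went from 0.499, 0.0808 and 0 to 3.19, 2.53 and 2.82 RPKM and was also over 1 RPKM only in DZNep, with 1.71 in log2 in the fit with no filter (adjusted p = 0.00315) and 3.73 with a pseudocount of 0.1, and in the genetic experiment it lay under the filter at 0.237 and 0.148 RPKM in EtOH and 0.667 and 0.650 in Tamoxifen.

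With Tamoxifen, LCN2, an iron-sequestering antibacterial protein, rose from 144 and 141 to 210.3 and 239 RPKM (0.65, SE 0.0790; limma adjusted p = 0.0344). With DZNep it rose from 154, 127 and 122 to 164, 179 and 168 RPKM (0.34; 0.0249), a call lost without DMSO 2, DMSO 3, DZNep 2 or DZNep 3 (0.0623 to 0.0956) or with no filter (0.0577). CSF3, the granulocyte growth factor, rose with Tamoxifen from 9.82 and 10.6 to 17.9 and 19.7 RPKM (0.82; 0.0263) and did not pass with DZNep (0.19; 0.289), except without DMSO 1 (0.0182). ICAM1, an adhesion molecule, rose in both experiments, by 0.51 with Tamoxifen (0.0344) and by 0.19 with DZNep (0.0170; over the threshold without DMSO 2, DMSO 3 or DZNep 2, 0.0594 to 0.0733). S100A9, a subunit of calprotectin, fell with Tamoxifen from 12.1 and 17.0 to 4.66 and 4.14 RPKM (-1.51, SE 0.158; 0.0305) and overlapped with DZNep (-0.03; 0.923). The remaining call with Tamoxifen was ZC3H12A, an RNase that degrades cytokine messages (0.53; 0.0395), named after its value was seen. All 5 of these calls were lost when either Tamoxifen library was left out.

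**Figure D5:**
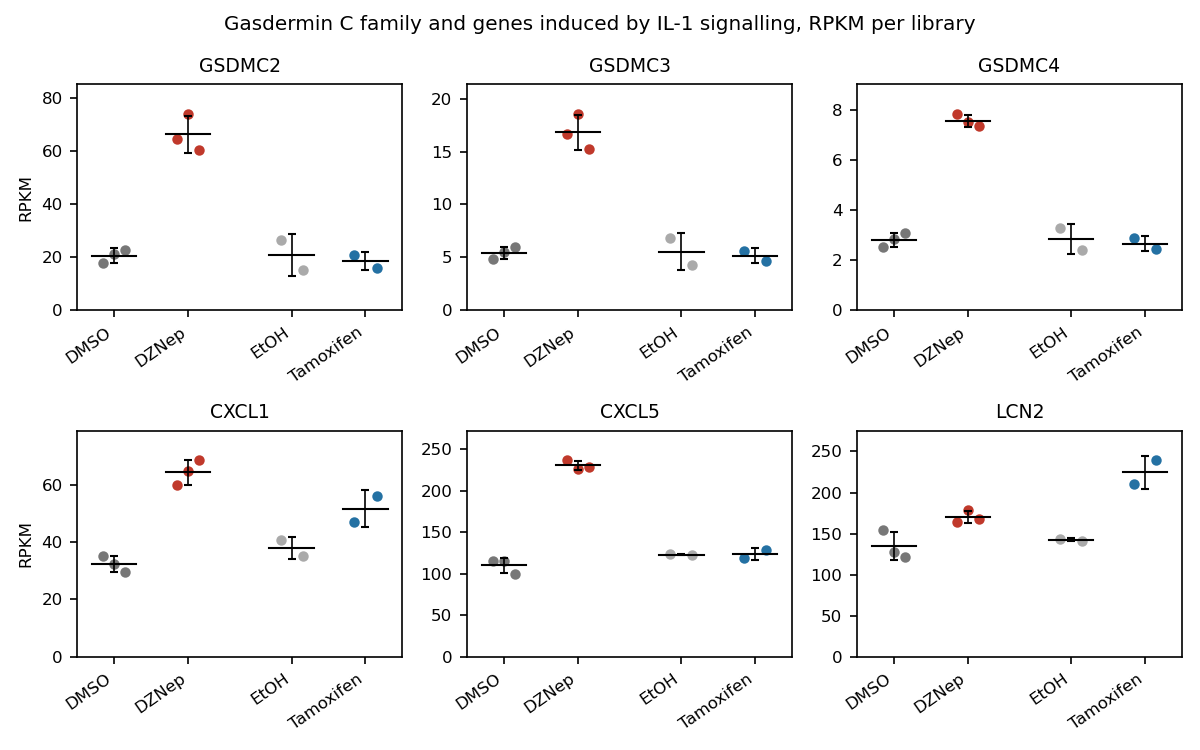
RPKM of 3 gasdermin C genes and 3 genes induced by IL-1 signalling in each library, with a linear axis of its own for each gene. Points are libraries, horizontal bars group means and whiskers SD (n = 3 for DMSO and DZNep, n = 2 for EtOH and Tamoxifen). GSDMC2 stood between 60.4 and 73.9 RPKM in DZNep and between 15.1 and 26.3 in EtOH and Tamoxifen, whereas LCN2 was highest in Tamoxifen at 210.3 and 239.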

How the data were processed

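RNA-seq was done on 10 libraries. TRIzol RNA, 500 ng, went into stranded Illumina TruSeq mRNA libraries, per the labels' protocols. The submitters' processing notes list bcl2fastq 2.18, STAR, Cufflinks and the mm9 build; use of strand in counting is not stated. Each experiment has 1 table of log2 RPKM deposited by the authors; no value was below 0, so values were read as log2(RPKM + 1). Both tables had 24043 gene rows, not counting 2 empty rows in the genetic one. The genetic one lost 27 gene rows with date-like symbols, which left 24016. Read depth is not known.

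Per experiment, genes averaging 1 RPKM or more were tested two-sided by limma 3.58.1 (R 4.3.3) with a mean trend, and the difference of the effects in 1 fit of 4 group means over 10 libraries; Benjamini-Hochberg adjustment covered all genes tested, threshold 0.05. The procedure was tested on simulated data. Members and lists were chosen with earlier results of these data known. Genes named were the members; in each role of the pathway list and experiment, the called genes (the 4 of smallest p if more) or else the gene of smallest p; the highest gene per role (that of caspases and gasdermins is not reported here); the 5 genes most like IL18 and 2 most like each other member; the neighbours of IL18. Other settings tried: pseudocount 0.1; filters of none or 5 RPKM; quantile or trimmed mean scaling; robust variances or no trend; replicate block; both experiments in 1 fit; each library left out. Promoters were RefSeq windows (GRCm38.p6).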

Additional observations from a re-analysis of the deposited data

Results flagged for a closer look

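The effects of DZNep and of Tamoxifen differed in 15 of 34 named members and pathway genes, IL18 left aside, by the limma test of the difference itself. Many of these were named for a small p in 1 experiment, so this share is not comparable with the 19.9% of all genes tested; over the whole lists 1 of 6 members and 18 of 60 pathway genes differed, among them NFKBIA (-0.41), TNFAIP3 (-0.54), ZC3H12A (-0.62) and S100A8 (1.49), which were not chosen by the naming rule. Values are the DZNep effect less the Tamoxifen effect in log2. The difference was 0.58 for IL33 (adjusted p = 9.36e-04), 1.77 for GSDMC2 (0.00279), 1.54 for GSDMC3 (0.00133), 1.23 for GSDMC4 (4.59e-04), 1.05 for CXCL5 (1.77e-04), 1.01 for SERPINB9 (5.01e-04) and -0.58 for SIGIRR (0.00150). These 7 passed with any 1 library left out. The other 8 did not. S100A9 (1.48; 0.0114) was lost without Tamoxifen 2 (0.0501), CXCL1 (0.54; 0.0231) without EtOH 1 (0.0885) or Tamoxifen 1 (0.0916), and ICAM1 (-0.32; 0.0149) without EtOH 1 (0.0506) or Tamoxifen 2 (0.0838). BRCC3 (-0.31; 0.0239) was lost without EtOH 1 (0.05), EtOH 2 (0.0633) or Tamoxifen 2 (0.116). NAIP5 (0.36; 0.0329) passed without DMSO 1, DMSO 3 or Tamoxifen 1 and was lost without any other library (0.0526 to 0.131). CSF3 (-0.63; 0.0346) was lost without DZNep 1, DZNep 3 or any library of the genetic experiment (0.0540 to 0.126). IRAK1 (-0.26; 0.0351) passed without DMSO 1, DZNep 1 or Tamoxifen 1 and was lost without any other (0.0585 to 0.159). PANX1 (-0.34; 0.0454) passed without DMSO 3 or EtOH 2 and was lost without any other (0.0527 to 0.159).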

How the results depend on the processing

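Over all alternatives, 258 of 276 values of the tested members stayed on their side of the threshold, as did 2036 of 2190 of the other named genes. No called value turned its sign; of values not called, 8 of 202 for members and 56 of 1236 for other genes did, with reported sizes up to 0.25 in log2. The replicate numbers showed no clear pairing of the libraries (correlations of same-numbered deviations from -0.068 to 0.059 in the chemical and 0.040 in the genetic experiment). With 2 libraries per group the genetic correlations are all of 1 size by construction, so they cannot decide whether the libraries were paired. With a replicate block, called genes went from 3088 to 1610 for DZNep, from 230 to 878 for Tamoxifen and from 2190 to 1226 for the difference of the effects, and pathway genes from 25 to 14 and from 5 to 8. Among members and pathway genes the block ended the DZNep calls of BRCC3 (adjusted p = 0.0516), IL1RL2, MYD88, TAB1, IRAK1, NAIP6, PANX1, ICAM1 and LCN2 (0.0676 to 0.115), ended the difference for IRAK1, NAIP5, BRCC3, PANX1, CXCL1 and ICAM1 and for the neighbour PTS (0.0538 to 0.104), and gave calls with Tamoxifen for CASP4 (0.0315) and CCL20 (0.00223). For Tamoxifen, called genes numbered 1053 in a fit of both experiments, 646 with robust variances, 394 after trimmed mean scaling and 1 with no filter, and pathway genes 11 in the fit of both experiments and 0 with no filter. Of the members other than IL18, 2 were called with Tamoxifen, 1 with no trend or after quantile normalization and 0 with no filter. IL18 with Tamoxifen was -0.82 in log2 with a pseudocount of 0.1. Leaving out each library gave 1522 (without DMSO 2) to 3359 called genes for DZNep, with 1755 without DZNep 2, and 37 (without Tamoxifen 2) to 977 (without EtOH 2) for Tamoxifen, with 50 without Tamoxifen 1. It gave 924 (without Tamoxifen 2) to 2326 for the difference, with 1289 without Tamoxifen 1, 1316 without EtOH 1 and 1393 without DMSO 2. Pathway calls ran from 16 to 30 and from 0 to 6, and member calls with Tamoxifen from 0 to 3. With an arm of 1 library, that library is assumed to vary like the others. The cause of these shifts was not tested.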
